A study of Mus musculus with 5 samples.

Results

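The miR-26 family was measured by 2 probes, 1org-26a and 1org-26b, of the 178 probes on the microarray, 171 of them for microRNAs and 7 for transfer or small nuclear RNAs. Both were chosen by their IDs, with their values at all times already known from earlier work on these data, so the levels below are a description and carry no test. Each of 5 arrays set total RNA of activated mouse T cells against RNA of the same kind of cell without activation, called naive here. The cells were CD4+25- T cells, helper T cells from which the CD25-positive cells, rich in regulatory T cells, are absent by label. Activation lasted overnight (1 array, activated RNA in the dye Cy5), 3 days (2 arrays, activated RNA in Cy5 on the first and in Cy3 on the second) or 10 days (2 arrays, likewise). The sources used here do not give the means of activation, the mouse strain, any pooling of animals or whether a dye pair or the naive RNA came from 1 extract, so the spread between arrays may be technical.

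MicroRNAs are short RNAs that lead the silencing complex to messenger RNAs, mainly through pairing of the seed, the bases just after the 5′ end, and lower the output of those messages. MiR-26 is known for targeting Ezh2, the histone methyltransferase of Polycomb repressive complex 2, which is itself more abundant in dividing lymphocytes, and for being repressed by the growth regulator Myc. Its genes lie in introns of the Ctdsp phosphatase genes, which are known to restrain the cell cycle and are expressed together with their microRNAs. No messenger RNA was measured on these arrays, so neither Ezh2, Myc nor the host genes were followed.

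The mature sequences are shown because they define the family and limit how far the probes can be told apart. They are those of RefSeq (GRCm38.p6), written 5′ to 3′ with the seed, bases 2 to 8, in capitals.

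miR-26a-5p: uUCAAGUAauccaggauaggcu
miR-26b-5p: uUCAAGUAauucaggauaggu

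Both carry the seed UCAAGUA, and among 1679 mature names of the RefSeq table these 2 alone have it. Over the 21 positions that can be compared they are identical at 19. Counted from the 5′ end, the substitutions from miR-26a to miR-26b are C11U and C21U, and miR-26a is 22 bases long against 21 for miR-26b. The sequences of the array probes were not analysed here, so how much of each signal came from the other member was not tested. The ID 1org-26b is annotated with the miR-26b gene in the platform's annotation, while 1org-26a has no entry there and was read as miR-26a from its ID.

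The precursors are shown because the same mature miR-26a comes from 2 loci, so probe 1org-26a cannot separate them. The mature arm is in capitals.

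Mir26a-1: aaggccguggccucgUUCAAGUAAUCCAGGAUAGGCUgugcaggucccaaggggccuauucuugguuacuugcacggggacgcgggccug
Mir26a-2: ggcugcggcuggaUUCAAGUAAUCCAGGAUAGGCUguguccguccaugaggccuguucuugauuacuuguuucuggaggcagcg
Mir26b: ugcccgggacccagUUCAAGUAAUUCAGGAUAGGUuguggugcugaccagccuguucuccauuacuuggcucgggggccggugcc

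On GRCm38.p6, Mir26a-1 lies at chr9:119031796-119031885 within the span of Ctdspl, Mir26a-2 at chr10:126995530-126995613 within that of Ctdsp2, and Mir26b at chr1:74394310-74394394 within that of Ctdsp1, all on the plus strand. The table used here gives gene spans without exons.

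Values are log2 ratios of activated over naive RNA. Neither the log base nor the numerator is stated for the deposited values. Cy5 over Cy3 was assumed. It gives activated over naive on the 3 arrays with activated RNA in channel 2, and the other 2 arrays were turned by -1. The titles of all 5 arrays name activated before normal cells whatever the dye order, so they do not settle the direction. Were Cy3 the numerator, all directions here would reverse. Over microRNA probes the arrays of a pair then correlated at r = 0.66 (day 3) and 0.43 (day 10), where probes are not independent replicates. The array medians lay between -1.75 (overnight) and 1.42 (the second day 3 array), so each member is given as deposited, after centring on the array's median, and by its rank on the array, which centring cannot move. In bulk RNA, fewer cells that hold a microRNA and less of it per cell cannot be told apart. The ratios show change and not presence, and cannot show whether a marker was absent. At day 3 the means of the probes numbered for lymphocyte microRNAs were -5.24 (1org-150), -4.53 (1org-181), -2.19 (1org-142-as), -2.05 (2org-142*), -1.94 (2org-181b), -1.43 (1org-142-s) and -0.74 (2org-181c). The probe 1org-155, for miR-155 of activated lymphocytes, was at 4.89 and 4.87 at day 3 and at a mean of 0.35 at day 10. The day 3 mean was -0.24 for the myeloid probe 2org-223 and 1.03 for the erythroid probe 1org-144. Those of the 4 epithelial probes lay between 0.42 and 0.70. The 2 day 3 arrays had opposite signs for 1org-200a (3.29 and -2.46), 1org-200b (3.67 and -2.31) and 2org-200c (3.31 and -2.06). They also did for 2org-223 (-1.36 and 0.88) and 2org-181c (-1.78 and 0.30). The day 3 means of these probes give no direction. The part of these markers in the miR-26 values was not tested.

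At day 3 the family was far below its naive level. Probe 1org-26a stood at -4.44 on the first array and -3.94 on the second, a mean of -4.19 ± 0.25, where ± is the distance of either array from the pair mean (n = 2 arrays). Read as log2, this was 18.3-fold lower in activated cells. Probe 1org-26b stood at -3.03 and -2.90, a mean of -2.96 ± 0.06 (n = 2 arrays), or 7.80-fold lower. As deposited, all 4 values were below those of overnight and day 10 for the same probe. If the deposited values were natural logarithms, the folds would be 66.2 and 19.4.

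Few microRNAs were lower at that time. On the 2 day 3 arrays 1org-26a ranked the third and the second lowest of 171 probes, and 1org-26b ranked 8 and 5 from the lowest. Only 2 probes had a lower day 3 mean than 1org-26a, and 7 had a lower mean than 1org-26b. Both members met the rule of size for a time (a pair mean at least 2-fold below 0, both arrays on that side), as did 12.9% of microRNA probes. Nothing is read from that share, since the members were chosen with this comparison in view.

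Centring moved the day 3 means further from 0. Probe 1org-26a went to -4.64 and -5.37 (mean -5.0 ± 0.36), and 1org-26b to -3.23 and -4.32 (mean -3.77 ± 0.55). The medians of the 2 day 3 arrays, 0.20 and 1.42, differ by more than the members' own 2 values do, so centring widened the spread within each pair. After centring 19.9% of probes were at least 2-fold lower by the same rule.

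**Figure D1:**
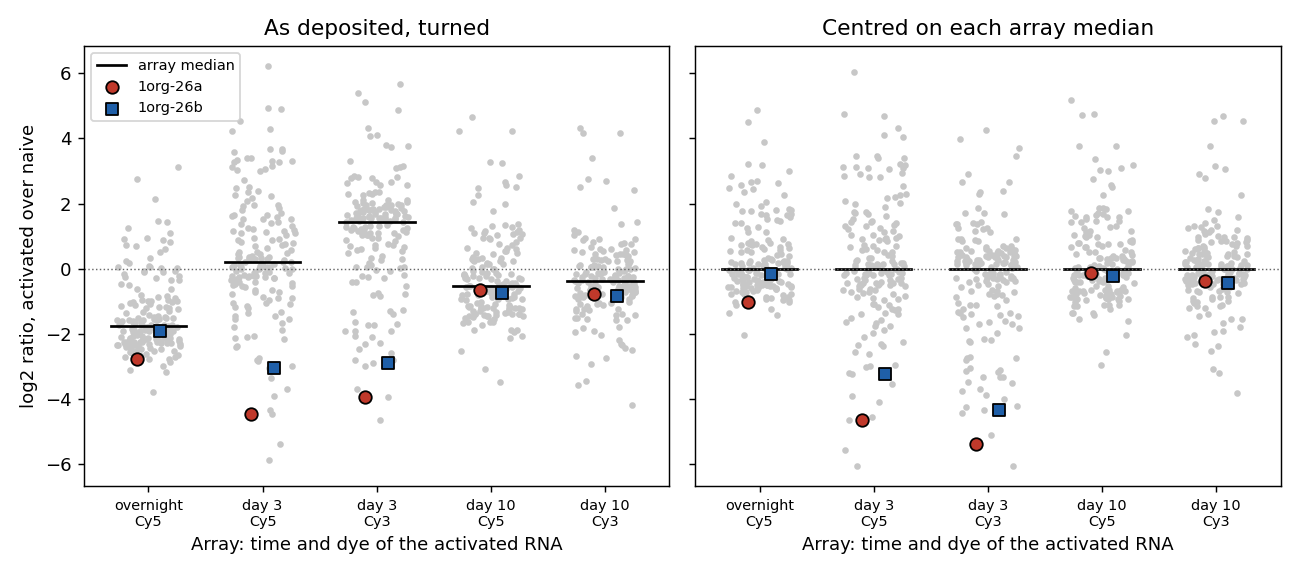
Log2 ratio of activated over naive RNA (vertical axis) on each of 5 arrays (horizontal axis, time and dye of the activated RNA), as deposited and turned (left) and after centring on each array's median (right). Grey points are the 171 microRNA probes, black bars the array medians, circles 1org-26a and squares 1org-26b; at day 3 both members lie near the bottom of the arrays, between -4.44 and -2.90 as deposited, and at day 10 near the medians.

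Overnight, 1org-26a was at -2.78 and 1org-26b at -1.90 on the single array. The median of that array was -1.75, and 73.1% of its microRNA probes were at least 2-fold lower, so both members shared a low level with most of the array. They parted in rank. Probe 1org-26a was 6 from the lowest, whereas 1org-26b was 74 of 171, near the middle. After centring 1org-26a was at -1.03, just past 2-fold with 4.09% of probes, and 1org-26b was at -0.15. This array has no dye swap and no replicate.

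The dye effect can be set beside the overnight value, because the day 3 and day 10 pairs measure it. It is the part of a deposited log ratio that does not turn with the swap, and the contrast that chose the members does not contain it. For 1org-26a it was -0.25 at day 3 and 0.06 at day 10, and for 1org-26b -0.06 and 0.04. Over all microRNA probes its median size was 0.55 at day 3 and 0.20 at day 10, and its largest 3.31 and 3.72. By the mean of both pairs, as deposited, the size for 1org-26b was the second smallest of 171 probes and that for 1org-26a ranked 21 from the smallest. This measure also holds the difference of the array medians, so it moves with centring. After centring its size at day 3 and day 10 was 0.36 and 0.12 for 1org-26a, and 0.55 and 0.11 for 1org-26b. The small size for 1org-26b at day 3 thus holds only as deposited. With each probe's mean dye effect taken off, the overnight values were -2.68 for 1org-26a and -1.89 for 1org-26b, and after centring as well -1.27 and -0.47. The rank of 1org-26a stayed at 6 from the lowest and that of 1org-26b went from 74 to 44.

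The overnight array and the first day 3 array have the same dye order, so their difference holds no dye effect that is common to both. It was -1.66 for 1org-26a and -1.13 for 1org-26b, lower at day 3, and -3.61 and -3.08 after centring. Each rests on 1 array a time. In the order of these differences 1org-26a was 11 and 1org-26b 21 from the lowest of 171 probes.

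By day 10 both members were within 2-fold of naive cells when the values are read as log2. Probe 1org-26a stood at -0.65 and -0.77, a mean of -0.71 ± 0.06 (n = 2 arrays), and 1org-26b at -0.74 and -0.83, a mean of -0.79 ± 0.04 (n = 2 arrays). All 4 values were below 0. They were also below the medians of their arrays, -0.51 and -0.38, and centring left -0.26 ± 0.12 for 1org-26a and -0.34 ± 0.11 for 1org-26b. The ranks of 1org-26a were 76 and 50 from the lowest and those of 1org-26b were 67 and 45, in the lower part of the middle. Neither member was among the 17.0% of probes at least 2-fold lower at day 10, nor among the 4.09% after centring. If the deposited values were natural logarithms, the day 10 means would be 2.03-fold (1org-26a) and 2.20-fold (1org-26b) lower, past 2-fold. After centring those folds would be 1.30 and 1.40.

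From day 3 to day 10, 1org-26a was higher by 3.48 and 1org-26b by 2.18, which is 11.2-fold and 4.52-fold. The day 3 and day 10 values did not overlap for either probe. Within the arrays with activated RNA in Cy5 the differences were 3.79 and 2.28, and within those with it in Cy3 they were 3.18 and 2.07, for 1org-26a and 1org-26b in that order. Of 171 probes 1org-26a had the third largest difference toward higher values and 1org-26b ranked 9. Both met the rule of at least 2-fold with no overlap of the pairs, as did 12.9% of probes as deposited and 28.1% after centring. Centring raised the differences to 4.74 and 3.43. As deposited, each probe was lowest at day 3, next overnight and highest at day 10. For 1org-26a centring kept that order (-5.0, -1.03 and -0.26), but with the arrays brought to the same spread its overnight value (-3.52) was just below that of day 3 (-3.47). For 1org-26b the same setting put both at about the same level (-2.41 and -2.47), and centring put overnight (-0.15) above day 10 (-0.34). Only the step from day 3 to day 10 therefore kept its direction for both probes under each of these settings, and the single overnight array has no settled place.

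**Figure D2:**
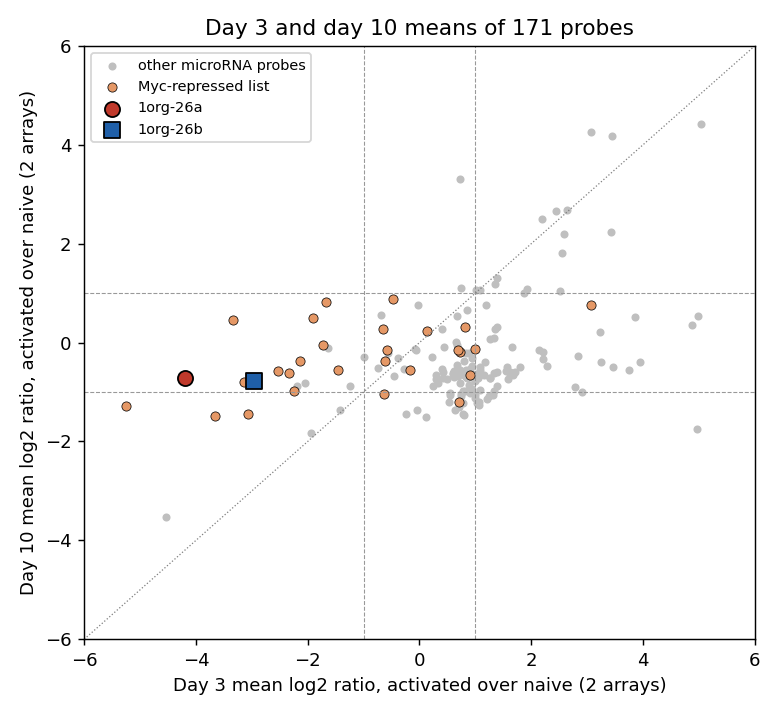
Day 3 mean log2 ratio (horizontal axis) against day 10 mean log2 ratio (vertical axis), each over 2 arrays as deposited, for 171 microRNA probes; dashed lines mark 2-fold and the dotted line marks equal values. The members, at -4.19 and -0.71 for 1org-26a and at -2.96 and -0.79 for 1org-26b, lie at the far left between the horizontal dashed lines, beside probes of the Myc-repressed list.

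The members lay apart from each other overnight and at day 3. The difference of 1org-26a minus 1org-26b within an array does not move with centring. On the overnight array it was -0.88. The day 3 arrays gave -1.41 and -1.05 (mean -1.23), and the day 10 arrays 0.09 and 0.06 (mean 0.08). Thus 1org-26a was the lower probe on the overnight and both day 3 arrays, and the probes lay within 0.10 of each other at day 10. The difference was not tested, since both probes were chosen with these values known.

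**Figure D3:**
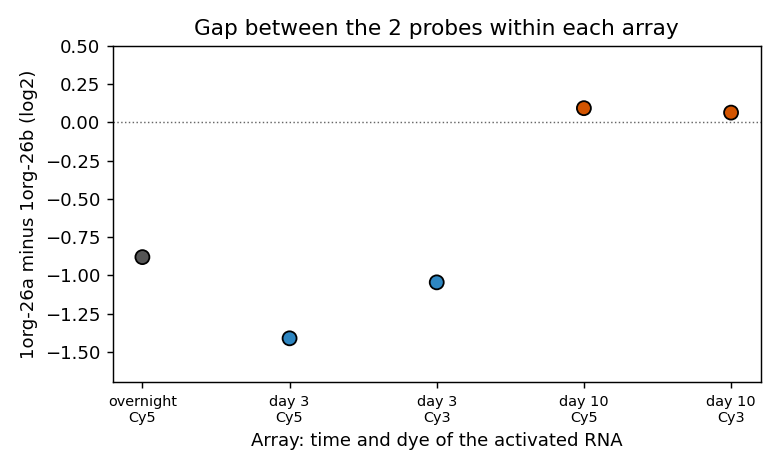
Difference of 1org-26a minus 1org-26b in log2 ratio (vertical axis) on each array (horizontal axis, time and dye of the activated RNA), 1 point an array. The overnight and day 3 points lie between -1.41 and -0.88, and both day 10 points lie just above 0.

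The probes with the most similar course were ordered by the root mean square difference of their log2 ratios from those of the member over the 5 arrays, which centring does not move either. For 1org-26a the nearest were 1org-7c (0.83), 1org-30b (0.84), 1org-26b (0.88), 1org-7g (0.98) and 1org-30c (1.19), against a median of 3.31 over all other microRNA probes. For 1org-26b they were 1org-30b (0.34), 1org-30c (0.36), 1org-16 (0.58), 1org-30d (0.64) and 1org-142-as (0.68), against a median of 2.54, and 1org-26a came at place 9. Thus 1org-30b and 1org-30c were nearer to 1org-26b than its own family member was. The points of this measure share their arrays and naive RNA, and it is a description.

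The sequences of these neighbours, as far as the RefSeq table held them under the names read from the IDs, are given so that their seeds can be read. MiR-30b and miR-30d were not matched.

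miR-30c-5p: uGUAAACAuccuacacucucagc
let-7c-5p: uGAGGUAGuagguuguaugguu
let-7g-5p: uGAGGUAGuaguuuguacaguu
miR-16-5p: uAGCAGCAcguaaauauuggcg

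None of these seeds (GUAAACA for miR-30, GAGGUAG for let-7 and AGCAGCA for miR-16) is that of miR-26. That was fixed in advance, since in the RefSeq table only miR-26a and miR-26b have the miR-26 seed. It says nothing on whether likeness in course follows the seed. The miR-30 family is known from differentiation, let-7 restrains growth and miR-16 restrains the cell cycle. Overnight, 1org-7c was at -1.63, with day 3 values of -4.33 and -2.99 and day 10 values of -1.45 and -1.51. Read as log2, it thus remained more than 2-fold lower at day 10 where the members did not. The overnight value of 1org-7g was -2.17, its day 3 values were -3.90 and -2.79 and its day 10 values 0.37 and 0.55, above naive at the last time. For 1org-30b the overnight value was -1.72, those of day 3 were -3.70 and -2.58 and those of day 10 -0.75 and -0.84, next to 1org-26b (-0.74 and -0.83).

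**Figure D4:**
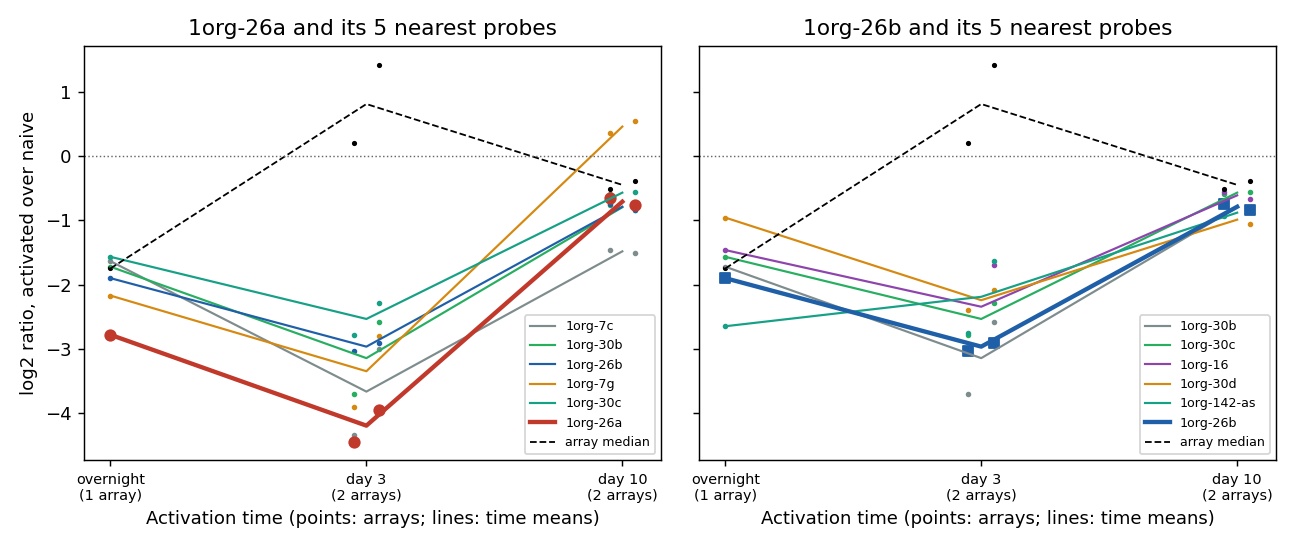
Log2 ratio of activated over naive RNA (vertical axis) by activation time (horizontal axis) for 1org-26a (left) and 1org-26b (right) with the 5 probes nearest to each; points are arrays, lines join the means of the times and the dashed line is the array median. The members and their neighbours were lowest at day 3, except 1org-142-as, whose overnight value (-2.65) was below its day 3 mean (-2.19).

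Among a list of 27 other probes for microRNAs known to be repressed by Myc, 13 were at least 2-fold lower at day 3 and 1 was higher. Over all microRNA probes 12.9% were lower and 38.0% higher. Other microRNAs reported as repressed by Myc were left out, such as miR-23. Its probes 1org-23a and 1org-23b were higher at day 3 (means 2.58 and 3.23). The list was chosen with earlier results of these data known, so its count supports no direction. Its members were read by ID, and it therefore holds 1org-34a, which the platform annotation names miR-34c. It does not hold 1org-34c, which the annotation names miR-34a (3.07 at day 3 and 4.26 at day 10). Probe 2org-34, numbered for miR-34 without a letter, was left out as well. It was also higher at both times (means 3.45 at day 3 and 4.19 at day 10). The median of the list was -0.65, against 0.83 over all probes. After centring 18 were lower and 1 higher (19.9% and 15.2% of all probes). In the limma fit, which models all 5 arrays with times and dye as terms, 13 were lower and 1 higher at an adjusted p below 0.05 (12.9% and 39.2%). The lower members were 6 of 9 let-7 and miR-98 probes, 3 of 5 miR-30 probes, 3 of 4 miR-15/16 probes and 1org-150. None of the 3 miR-29 probes was among them as deposited, and 2 were after centring.

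The 6 lowest of the list were 1org-150 (-5.24 ± 0.61), 1org-7c (-3.66 ± 0.67), 1org-7g (-3.35 ± 0.55), 1org-30b (-3.14 ± 0.56), 1org-7b (-3.07 ± 0.26) and 1org-30c (-2.53 ± 0.25), each n = 2 arrays. Set among them, 1org-26a was below all but 1org-150 and 1org-26b below all but 5. Probe 1org-150, numbered as miR-150 of mature lymphocytes, was at -0.28 overnight, above both members, and at -1.28 at day 10, below both. The member that was higher at day 3 was 1org-22, at 2.36 and 3.78 (mean 3.07 ± 0.71), and it was at 0.77 ± 0.03 at day 10.

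At day 10, 5 of the 27 were at least 2-fold lower and none higher (17.0% and 9.94% of all probes), around a median of -0.37. After centring 2 were lower and 3 higher (4.09% and 14.6%), and in the fit 4 were lower and none higher (11.7% and 7.02%). From day 3 to day 10, 13 were higher and 3 lower, beside 12.9% and 41.5% of all probes, 18 and 1 after centring (28.1% and 13.5%), and 11 and 3 in the fit (8.77% and 43.9%). The 3.48 of 1org-26a exceeded the difference of 25 of the 27 and the 2.18 of 1org-26b that of 21. Overnight 19 were lower and none higher as deposited (73.1% and 4.09%), and none was lower and 6 were higher after centring (4.09% and 21.6%). The fit called 8 lower and none higher overnight (38.6% and 1.75%). Centring thus turned the balance of the list overnight, while 1org-26a stayed past 2-fold lower.

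A list of 5 probes for microRNAs that Myc is known to induce, of the miR-17 cluster, is the opposite list. It left out 2org-17-3p, which is also numbered for miR-17. As deposited that probe was at least 2-fold lower overnight (-2.135) and at day 10 (mean -1.20). Its day 3 values were -0.439 and 1.481. The counts below are of the 5 listed probes alone. At day 3, 2 of them were at least 2-fold higher and none lower (38.0% and 12.9% of all probes), and after centring 1 and 1 (15.2% and 19.9%). At day 10, 2 were higher and none lower (9.94% and 17.0%), and 4 and none after centring (14.6% and 4.09%). Overnight, 2 were higher and none lower (4.09% and 73.1%), and all 5 were higher after centring (21.6%). From day 3 to day 10 none passed the rule in either direction as deposited, and 4 were higher after centring (28.1%). Their medians were 0.83 overnight, 0.85 at day 3 and 0.76 at day 10 as deposited, and 2.58, 0.04 and 1.21 after centring, so the course of this list depends on the centring.

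From a short list of other microRNAs known to target Ezh2, besides let-7, the arrays held miR-101 and miR-214. The list is not complete, so these probes do not stand for all microRNAs that target Ezh2. Probe 1org-101 had an overnight value of -1.92, day 3 values of -0.14 and 1.93, and day 10 values of -0.28 and -0.14. Its day 3 arrays had opposite signs, so its mean of 0.89 gives no direction. For 2org-214 they were 3.11, then 4.53 and 5.40, then -1.17 and -2.33. It thus lay on the other side of naive from the members overnight and at day 3, and below them at day 10, with or without centring (4.86, 4.15 and -1.30).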

How the data were processed

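The deposited table holds 1 log ratio per probe and array, read as log2. The scanner, image analysis, background correction and normalization by the authors are not stated in the labels or the table, so signal over background is unknown and the number of arrays (5) limits the precision. Arrays with activated RNA in channel 1 were multiplied by -1. No value was missing. The rule of size called a probe when its mean was at least 2-fold (1 on the log2 scale) from 0 with the same sign on both arrays, overnight on its single array, and between days where the pairs did not overlap. Since both arrays of a pair may hold the same extracts, this rule was preferred to a test. The alternative was limma 3.58.1 in R 4.3.3 (2-sided, Benjamini-Hochberg over 171 microRNA probes, threshold 0.05). It was run on simulated data in which a probe had the same change on all 5 arrays and a constant dye effect. That check does not cover changes or dye effects that differ between times. The p-values of the fit cover array-to-array spread alone. With a term for each time and a dye term, a probe's own spread comes only from how the dye effects of the day 3 and day 10 pairs differ. The single overnight array adds nothing to it, so overnight calls of the fit rest on the spread of the other arrays. The fit then moderates each probe's spread with that of all microRNA probes, so its p-values also draw on other probes. Transfer and small nuclear RNA probes were left out of counts. The platform annotation gave 1 gene for 61 probes, several for 1 and none for 116, and list members were read by the number and letter in their ID, also where the annotation differed (1org-34a and 1org-34c). The text names the members, the 5 nearest probes to each, the 6 lowest list members at day 3 and those 2-fold higher. It also names all probes of the Ezh2-targeting list and of the markers, and some probes that the lists left out. Members and lists were chosen with earlier results of these data known.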

Additional observations from a re-analysis of the deposited data

Results flagged for a closer look

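The difference of 1org-26a minus 1org-26b was below 0 on both day 3 arrays and above 0 on both day 10 arrays, a change of 1.31 between the pair means. This difference between the times was not tested. The day 10 values are within 0.10 of 0, so the sign at day 10 says little, while the day 3 values are not.

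The signs of 3 named probes also differed between the 2 times on every array as deposited, and these differences were not tested. Probe 1org-7g, among the nearest to 1org-26a, was below naive at day 3 and above it at day 10, a difference of 3.81, and 5.06 after centring. Probe 2org-214 was above naive at day 3 and below it at day 10, a difference of -6.71, and -5.46 after centring. Probe 1org-141, an epithelial marker, differed by -1.36, close to the -1.26 that centring takes off this difference.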

How the results depend on the processing

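Under the alternatives run, each miR-26 member stayed below naive at each time and higher at day 10 than at day 3, while the place of the overnight value in the order of times changed, as given above. As deposited against centred on the microRNA median and on the median of all probes, 1org-26a gave -2.78, -1.03 and -1.05 overnight; -4.19, -5.0 and -4.92 for day 3; and -0.71, -0.26 and -0.26 for day 10. In the same order 1org-26b gave -1.90, -0.15 and -0.16 overnight; -2.96, -3.77 and -3.69 for day 3; and -0.79, -0.34 and -0.33 for day 10. The differences of day 10 minus day 3 were 3.48, 4.74 and 4.66 for 1org-26a and 2.18, 3.43 and 3.35 for 1org-26b. With the arrays brought to the same spread, 1org-26a was at -3.52, -3.47 and -0.84 and 1org-26b at -2.41, -2.47 and -0.93, in the order of the times, and the differences were 2.63 and 1.54. With the dye effect taken off overnight and centring, the values were -1.27 and -0.47. Leaving out 1 array moved the day 3 mean of 1org-26a between -4.44 and -3.94 and that of 1org-26b between -3.03 and -2.90, the day 10 means between -0.77 and -0.65 and between -0.83 and -0.74, and the differences between 3.24 and 3.73 and between 2.11 and 2.24.

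Counts moved more than the members did. Of all microRNA probes 125 were lower overnight, against 7 and 7 with the 2 centrings and 66 in the limma fit. At day 3 the count was 22, against 34 centred on the microRNA median, and between 24 and 33 on a single array. At day 10 it was 29, against 7 and 6 centred, 66 at 1.5-fold and between 37 and 52 on a single array, with 52 on the array with activated RNA in Cy5. Higher at day 10 than at day 3 were 22, against 48 and 47 centred, and between 19 and 28 with an array left out. Of the Myc-repressed list 19 were lower overnight, against 0 and 0 centred, 8 in the limma fit and 10 of the 14 probes of the list as read by annotation alone, which takes 1org-34c in place of 1org-34a. At day 3, 13 were lower, against 5 of these annotated probes, and between 13 and 17 on a single array. At day 3, 1 was higher, against 6 at 1.5-fold, 2 of the annotated probes (1 of them 1org-34c), and 2 to 4 on a single array (4 on the array with activated RNA in Cy3 and 2 on the other). At day 10, 5 were lower, against 2 and 1 centred, 9 at 1.5-fold and 2 of the annotated probes, and between 4 and 7 on a single array. Higher at day 10 than at day 3 were 13, against 5 of the annotated probes and 13 to 16 with an array left out. The annotated set has fewer probes and 1 that the list does not hold, so its counts are no share of the list's, and a single array keeps its dye effect. The cause of the other changes was not tested. The natural-log reading was chosen after seeing the data. No paired analysis was possible because the labels give the arrays no replicate numbers shared across times; the dye term of the limma fit is the nearest to it.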
